A study of Mus musculus with 6 samples.

Results

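The replication-dependent histone mRNAs are the transcripts of the protein-coding mouse genes whose symbols begin with Hist1h, Hist2h, Hist3h or Hist4h in the GENCODE M21 annotation of GRCm38. The rule uses names only and finds 67 genes, of which 65 were listed among the 47729 genes of the count files (21697 of them protein-coding), and Hist1h2bm and Hist1h2bh were not analysed here. They comprised 6 genes for the linker histone H1, 18 for H2A, 16 for H2B, 12 for H3 and 13 for H4. The Hist1 cluster on chromosome 13 held 52 of them, the Hist2 cluster on chromosome 3 held 10, chromosome 11 held 2 Hist3 genes and chromosome 6 the single Hist4 gene.

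The RNA was that of extracellular vesicles (EVs), the membrane-bound particles that cells release, captured with the Vn96 peptide from cultures of WEHI-231, an established mouse B lymphoma cell line. For 1 h, 500000 cells received 10 µg/mL of the rat anti-CD24 antibody M1/69 or a matched isotype antibody. Each came with 5 µg/mL of an anti-rat secondary antibody, so the isotype samples also carried antibody and no sample was left without it. Per the paper, the isotype antibody was earlier shown not to bind these cells and stands in for an unstimulated control. CD24 is a lipid-anchored surface protein of developing B cells. There were 3 biological replicates per condition from this single line, so p-values measure the spread between cultures of WEHI-231. Each sample had 166129 to 794185 counts on genes, of which 2436 to 10659 were on protein-coding genes. All isotype libraries carried one barcode and all anti-CD24 libraries another, so barcode and condition cannot be told apart.

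Histone genes of this class are switched on when a cell copies its DNA, to package the new strands. H2A, H2B, H3 and H4 form the core particle around which DNA winds, and H1 binds the DNA that enters and leaves it. Their mRNAs are the only known metazoan mRNAs that normally end without a poly(A) tail. In its place the 3′ end carries a short stem-loop, bound by the protein SLBP, which governs processing, translation and the rapid decay of the mRNA at the end of S phase. As a class the genes typically lack introns, although 5 of the members are annotated here with an intron, and occur in many near-identical copies. The libraries here were made from total RNA without poly(A) selection, fragmentation or rRNA depletion.

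The stem-loop is shown first because it is the shared mark of the class. A 16-base element with a perfectly paired 6-base stem and a 4-base loop of the histone type was searched on the sense strand of the GENCODE transcripts. It was present in 44 of the 67 genes (65.7%) and in 107 of 21961 other protein-coding genes (0.487%), over transcripts of all lengths. Capitals mark the stem-loop, with 5 bases on either side, in members of each type that carried many counts.
Hist1h1e, chr13:23621777-23621802, minus strand: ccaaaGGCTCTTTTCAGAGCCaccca
Hist1h1c, chr13:23739507-23739532, plus strand: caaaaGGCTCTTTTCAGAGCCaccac
Hist2h2aa2, chr3:96239779-96239804, minus strand: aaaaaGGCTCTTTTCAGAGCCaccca
Hist1h2bf, chr13:23573760-23573785, minus strand: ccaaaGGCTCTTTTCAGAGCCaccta
Hist2h3c2, chr3:96238480-96238505, minus strand: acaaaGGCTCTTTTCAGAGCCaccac
Hist1h4b, chr13:23757361-23757386, plus strand: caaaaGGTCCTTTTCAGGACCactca
Coordinates are those of GRCm38. The stem-loop was identical in the first 5 genes and differed in the paired bases of Hist1h4b. In the annotated Hist1h1e transcript, 1153 exonic bases follow the element.

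Sequence sharing decides what a count on 1 histone gene can mean. The aligner wrote every equally good position of a read, and none of the files lists reads as aligned to several places, so a read that fits several copies can be counted on each of them. The authors kept reads of 28 bases or more. Of the 65 genes, 40 had under 50% of their 28-base words in no other gene, and these 40 held 372 of the 648 histone counts. The median share of such unshared words was 95.2% for H1, 50.6% for H4, 40.2% for H2B, 36.5% for H3 and 24.1% for H2A. The H2A genes Hist1h2ac, Hist1h2ad, Hist1h2ah, Hist1h2ao and Hist1h2ap share an unbroken stretch of 234 exonic bases and had counts that were identical in all 6 samples. The middle 60 bases of that stretch are shown because they occur in 13 of the listed H2A genes, here at chr13:23683621-23683680 on the minus strand for Hist1h2ac and chr13:21810704-21810763 on the plus strand for Hist1h2ao.
H2A stretch shared by 13 genes: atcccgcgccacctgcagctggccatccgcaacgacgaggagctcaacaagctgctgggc

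H1 genes are more distinct, but not everywhere. The following 60 exonic bases are shown because they are the same in Hist1h1e (chr13:23622258-23622317, minus strand), Hist1h1c (chr13:23739029-23739088, plus strand) and Hist1h1d (chr13:23555273-23555332, plus strand), while the same window differed from Hist1h1e at 4 bases in Hist1h1a (chr13:23763903-23763962, plus strand) and at 8 bases in Hist1h1b (chr13:21780315-21780374, minus strand). Capitals mark the bases that differ from Hist1h1e.
Hist1h1e, Hist1h1c and Hist1h1d: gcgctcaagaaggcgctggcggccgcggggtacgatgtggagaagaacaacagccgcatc
Hist1h1a: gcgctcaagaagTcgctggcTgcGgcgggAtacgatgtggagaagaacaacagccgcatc
Hist1h1b: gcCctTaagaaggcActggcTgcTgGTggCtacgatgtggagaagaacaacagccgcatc
Outside such windows the H1 genes can be told apart. The share of words found in no other gene was 64.5% for Hist1h1e, 87.8% for Hist1h1c, 96.0% for Hist1h1d, 99.3% for Hist1h1a and 94.4% for Hist1h1b.

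**Figure D1:**
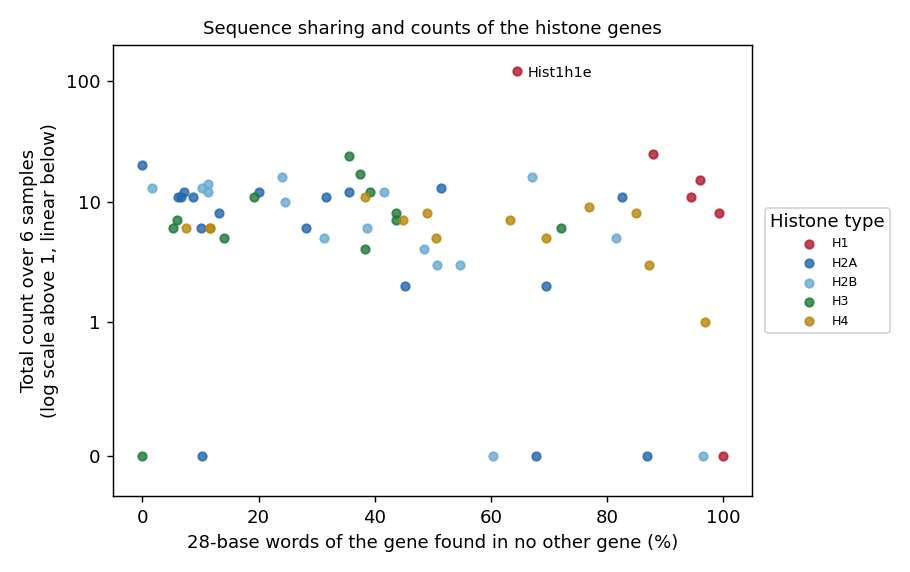
Each point is a listed histone gene, with the percent of its 28-base words found in no other gene on the x axis and its total count over the 6 samples on the y axis (log scale above 1, linear below), coloured by histone type. Hist1h1e stands alone at 120 counts, while the other H1 genes, at 87.8% or more, held between 0 and 25 counts.

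Histone mRNAs were present in the EVs of both conditions at low counts. At least 1 count was seen for 58 of the 65 genes (89.2%), against 33.4% of all protein-coding genes in the files. The 58 genes held 648 counts in all, with a median of 8 per gene. Hist1h1e alone held 120 (18.5%), 27 genes had 10 or more and 31 had fewer. A count in every one of the 6 samples was found for 3 genes, Hist1h1e, Hist2h2aa2 and Hist1h3b (4.62% of the members, against 0.226% of protein-coding genes). Levels per kilobase of exon are in CPM, the count scaled to the total on genes of its library. Their median over the samples was 4.76 CPM for the 58 genes and 0.118 CPM for all 7253 protein-coding genes with a count. The listed histone genes are short, with a median of 539 exonic bases, so few counts give a high level. Hist2h4, with 1 count in all, was already at 0.134, so the 2 medians do not compare abundance at like length. Reads counted on several copies enter these levels once for each copy.

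The 7 genes listed at 0 in every sample included Hist1h1t and Hist1h2aa, which are known as testis histones. The third testis-type gene, Hist1h2ba, had 0, 1 and 0 counts in the isotype samples and 0, 2 and 0 in the anti-CD24 samples, exactly those of Hist1h2bb. Also at 0 were Hist2h2aa1 and Hist2h3c1, named here after their values were seen. Their exons overlapped those of Gm20634 on the same strand over 90.3% and 100% of their length, and in the union mode of the counting a read that touches both genes goes to neither. Gm20634 itself had 0 counts. Hist2h2aa2, which has no 28-base word of its own, had 20 counts. The 0 of Hist2h3c1 thus says nothing about its RNA, and reads of Hist2h2aa1 could be counted only over the 9.73% of its exons outside Gm20634.

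**Figure D2:**
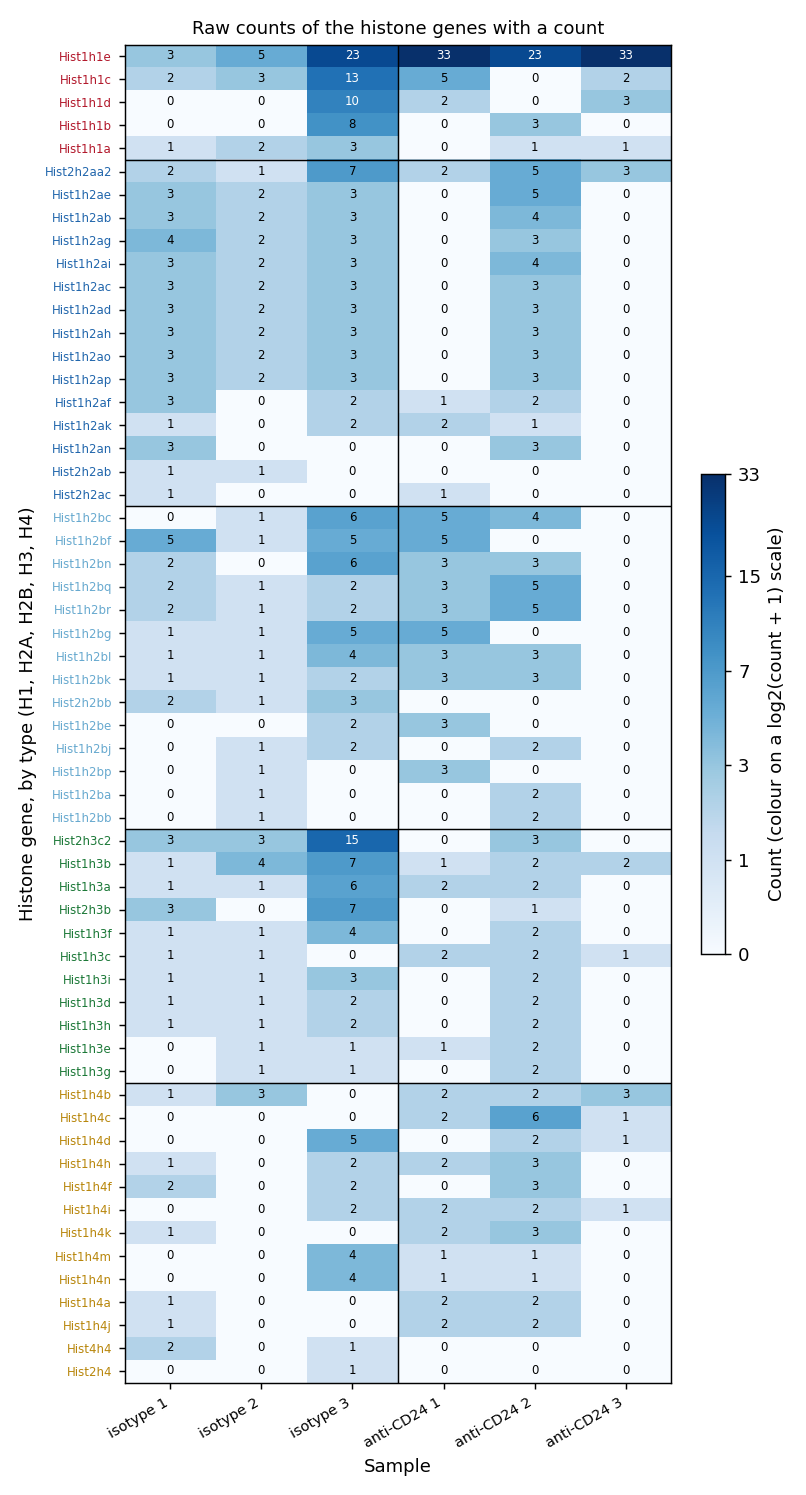
Raw counts of the 58 histone genes with a count (y axis, grouped by type) in the 6 samples (x axis), printed in each cell and coloured on a log2(count + 1) scale. Counts of Hist1h1e run from 3 to 33, and in anti-CD24 replicate 3 there are 47 genes at 0.

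The share of the protein-coding counts taken by histone genes overlapped between the conditions. The isotype samples had 83, 60 and 203 histone counts, which were 1.5% (95% Wilson interval 1.21% to 1.86%), 2.46% (1.92% to 3.16%) and 1.90% (1.66% to 2.18%) of their protein-coding counts. The anti-CD24 samples had 104, 147 and 51, which were 1.97% (1.63% to 2.38%), 1.41% (1.20% to 1.66%) and 0.896% (0.683% to 1.18%). The ranges overlapped, with means of 1.96% ± 0.48 (SD, n = 3) and 1.43% ± 0.53 (SD, n = 3). Libraries with the same replicate number carry the same sequencer run name in the deposited data. By replicate number, the anti-CD24 sample differed from the isotype sample by 0.46, -1.05 and -1.01 percentage points. The intervals cover counting error only, and at this depth 3 counts are 0.0281% to 0.123% of the protein-coding counts of a sample. The difference of -0.53 percentage points changed sign, to 0.16, when only the 25 genes with 50% or more unshared words were counted. Those genes include Hist1h1e, with 120 counts in all. With Hist1h1e left out of all members, chosen after seeing the data, the difference was -0.85. The shares were then 1.45%, 2.26% and 1.69% for isotype and 1.34%, 1.19% and 0.316% for anti-CD24, without overlap. The 2 changes were not combined.

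Relative to all counts on genes, rRNA included, the histone counts summed over every copy were lower in every anti-CD24 sample. Their summed CPM was 257, 361 and 266 in the isotype samples and 170, 200 and 64.2 in the anti-CD24 samples. Of all counts, this was a mean of 0.0295% ± 0.0058 (SD, n = 3) for isotype and 0.0145% ± 0.0071 (SD, n = 3) for anti-CD24, and the groups did not overlap. As a share of counts outside rRNA and ribozyme genes, the means were 0.326% ± 0.051 (SD, n = 3) and 0.118% ± 0.050 (SD, n = 3), again without overlap. All protein-coding genes together were lower on that scale too, at 19.9%, 15.6% and 15.5% in the isotype samples and 8.19%, 9.29% and 6.99% in the anti-CD24 samples. For the 25 histone genes with 50% or more unshared words the groups overlapped, with a summed CPM of 55.8, 114 and 107 and then 91.8, 80.1 and 52.9. Less RNA of a gene per vesicle and fewer vesicles that carry it cannot be told apart in these bulk samples.

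The number of histone genes seen differed most between the anti-CD24 samples. A count was found for 42, 37 and 46 genes in the isotype samples and for 30, 47 and 11 in the anti-CD24 samples. Anti-CD24 replicate 3 was the lowest although it had the most counts on genes, 794185. Its counts on the core histones H2A, H2B, H3 and H4 were 12, against 64 and 120 in the other anti-CD24 samples and 77, 50 and 146 in the isotype samples. As a share of protein-coding counts, the core histones held 1.39%, 2.05% and 1.37% in the isotype samples and 1.21%, 1.15% and 0.211% in the anti-CD24 samples, so that the groups did not overlap when every copy was summed, with the third anti-CD24 sample far below the other two. With 1 gene kept for each set of identical counts, the values were 1.05%, 1.52% and 1.15% and then 1.10%, 0.884% and 0.211%, and the groups overlapped. They also overlapped for the 19 core genes with 50% or more unshared words, at 0.217%, 0.369% and 0.235% and then 0.302%, 0.308% and 0.0527%. Its normalization factor in edgeR (TMM) was 0.514, against 0.871 to 1.36 in the others.

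**Figure D3:**
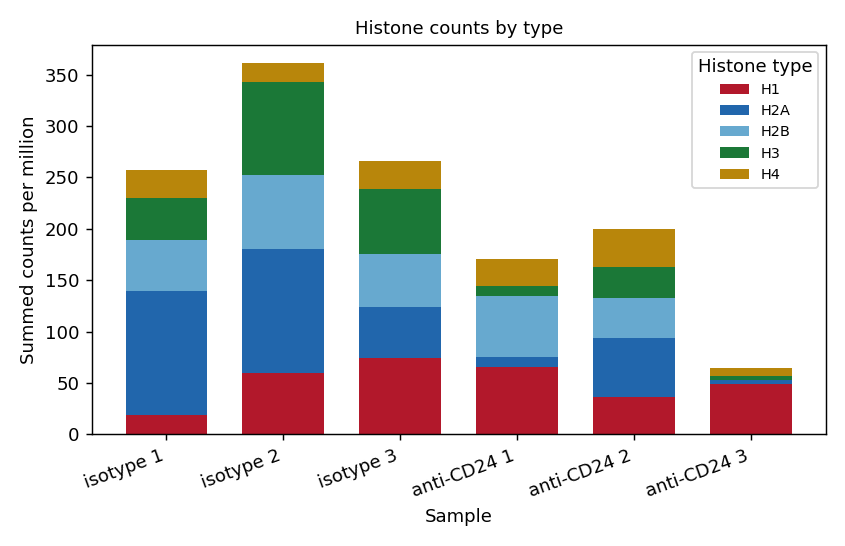
Stacked bars give the summed CPM (y axis, from 0) of the H1, H2A, H2B, H3 and H4 genes in each sample (x axis). The total is 257 to 361 in the isotype samples and 64.2 to 200 in the anti-CD24 samples, and H1 makes up most of the bar of anti-CD24 replicate 3.

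No histone gene was called between the conditions. Of the 65 genes, 48 (73.8%, against 4.02% of protein-coding genes) passed the filter of 1.0 CPM in at least 3 samples, which at this depth means a count in at least 3 samples, since 1 count was worth 1.26 to 6.02 CPM. None of the 48 had an adjusted p under 0.05 in edgeR's quasi-likelihood test, where 0.0666% of the 1501 genes tested did. At an unadjusted p under 0.05, edgeR gave 4 (7.99% of all genes tested passed) and DESeq2 also gave 4, with 0 called. The 4 in edgeR were Hist2h2bb, Hist2h3c2, Hist2h3b and Hist1h4c, of which the first and the last had 0 counts in one group. Adjusted p in edgeR ran from 0.492 to 0.993, and the standard errors of the log2 fold changes from 0.99 to 2.08, so that changes of this size could not be resolved for single genes.

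The log2 fold changes (anti-CD24 against isotype) were below 0 for 41 of the 48 genes (85.4%, against 55.3% of all genes tested) and above 0 for 7. Their median was -1.30, against -0.29 for all genes tested and -0.88 for the 872 protein-coding genes tested, so protein-coding genes as a whole were also below 0. Among the 46 genes with a count in both groups, the values ran from -3.43 for Hist2h3b to 1.23 for Hist1h4k, the latter named here after its values were seen. The other tested members, Hist2h2bb and Hist1h4c, had 0 counts in one group, so they are only set against a floor of 3 counts. Members with shared sequence repeat the same reads, and the median was -1.08 when 1 gene was kept for each set of identical counts. By type, the fold change was below 0 for 12 of 12 H2A, 10 of 10 H2B, 10 of 11 H3, 3 of 4 H1 and 6 of 11 H4 genes. With rRNA genes removed before normalization, 34 of the 48 were below 0, among them 12 of 12 H2A, 6 of 10 H2B, 9 of 11 H3, 3 of 4 H1 and 4 of 11 H4 genes.

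**Figure D4:**
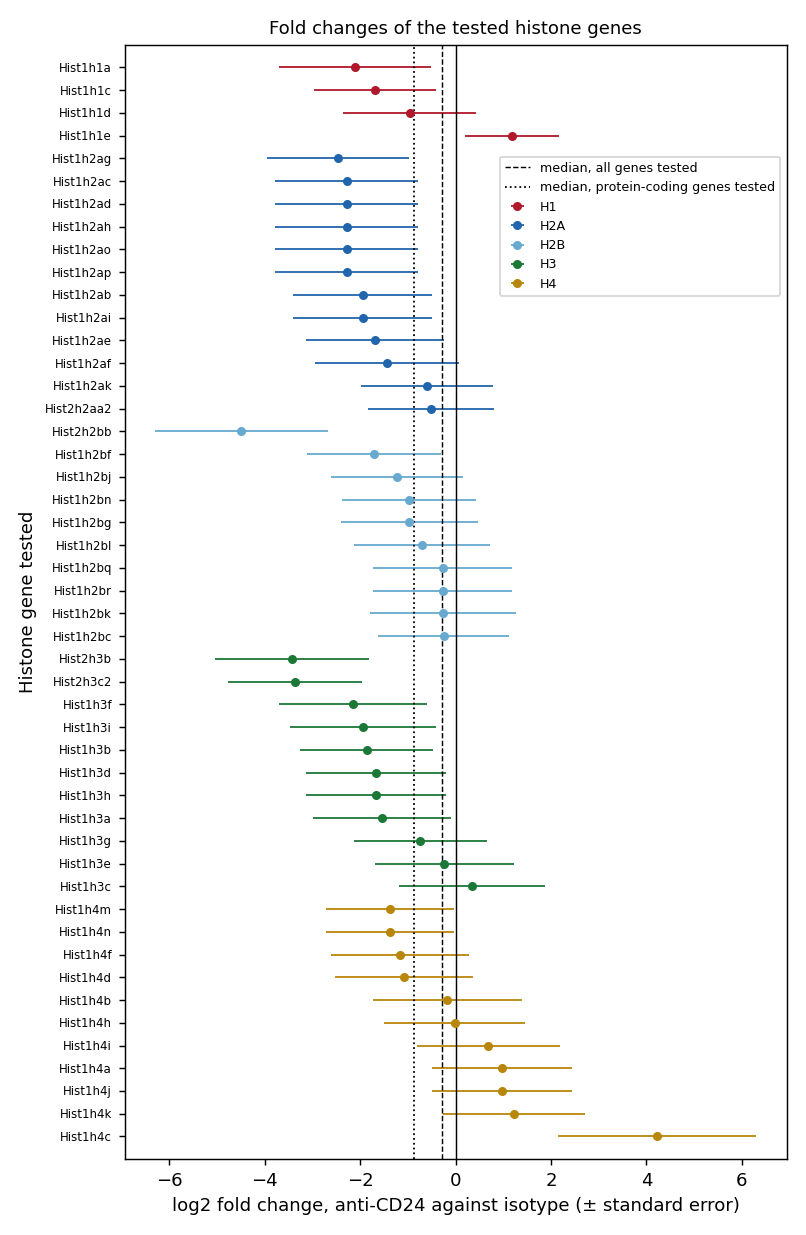
Log2 fold change of each of the 48 tested histone genes (x axis, anti-CD24 against isotype, edgeR), with its standard error as a bar, ordered by type on the y axis. Most points lie left of 0 and left of the median of all genes tested at -0.29 (dashed), and Hist1h1e is the only H1 gene to the right. The dotted line is the median of the protein-coding genes tested, which also lies left of 0. The points of Hist2h2bb and Hist1h4c are fitted against a group with 0 counts and do not measure the size of a change.

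All anti-CD24 CPM values lay above all isotype values for 2 of the 48 genes, Hist1h1e and Hist1h4c (5.73% of all genes tested were of this kind), and below them for 6 (6.53% of all genes tested). The 6 included Hist2h3c2, Hist1h3b and Hist2h2bb. Hist1h4c and Hist2h2bb passed the filter only through the group that has counts, so they had to differ, and among the 46 genes with a count in both groups the numbers were 1 and 5.

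Hist1h1e, one of the somatic linker histones, had the most counts of the histone genes. The gene (ENSMUSG00000051627) lies on the minus strand at chr13:23620629-23622558 with 1930 exonic bases, of which 25.7% overlap exons of Hist1h2be or Gm11398 on the same strand. It had 3, 5 and 23 counts in the isotype samples and 33, 23 and 33 in the anti-CD24 samples. Over the 6 samples, its mean level was 17.0 CPM per kilobase, the highest of the histone genes. This order came from the anti-CD24 samples, where it ranked 1 of the members at 21.9 CPM per kilobase, while in the isotype samples it ranked 17 at 12.0, with Hist1h2ai first at 21.4.

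In CPM, Hist1h1e was at 23.2 ± 12.0 (SD, n = 3) for isotype and 42.3 ± 11.4 (SD, n = 3) for anti-CD24, and every anti-CD24 value was higher. The gap was narrow, since isotype replicate 3 and anti-CD24 replicate 2 both had 23 counts in libraries of 763737 and 736432. Outside rRNA and ribozyme genes these libraries had 68947 and 112042 counts. On that scale the isotype sample was the higher of the 2, so the groups overlapped. An exact two-sided permutation test on CPM gave p = 0.1, the smallest that 3 against 3 allow. The log2 fold change was 1.19 (standard error 0.99, edgeR adjusted p = 0.633).

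The make-up of the H1 counts differed between the conditions. The other H1 genes summed to 3, 5 and 34 counts in the isotype samples and to 7, 4 and 6 in the anti-CD24 samples. Hist1h1e thus held 50% (95% Wilson interval 18.8% to 81.2%), 50% (23.7% to 76.3%) and 40.4% (28.6% to 53.3%) of the H1 counts in the isotype samples. In the anti-CD24 samples it held 82.5% (68.1% to 91.3%), 85.2% (67.5% to 94.1%) and 84.6% (70.3% to 92.8%). The groups did not overlap, with means of 46.8% ± 5.6 (SD, n = 3) and 84.1% ± 1.4 (SD, n = 3), and the share was higher by 32.5, 35.2 and 44.3 percentage points within the 3 replicate numbers. This share was chosen after the counts had been seen and is given as a description, without a test. The first 2 isotype values rest on 6 and 10 counts.

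**Figure D5:**
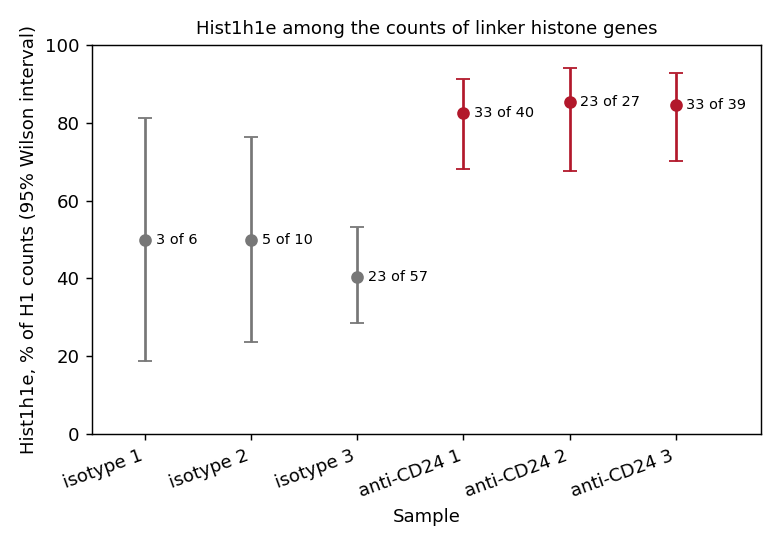
Points give the percent of H1 counts that fell on Hist1h1e (y axis) in each sample (x axis), labelled with the counts, and bars are 95% Wilson intervals for counting error only. The 3 anti-CD24 samples sit between 82.5% and 85.2%, above the isotype samples at 40.4% to 50%.

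Among the other linker histones, Hist1h1c had 2, 3 and 13 counts in the isotype samples and 5, 0 and 2 in the anti-CD24 samples, a log2 fold change of -1.69 (standard error 1.28, edgeR adjusted p = 0.590). Its values overlapped between the groups. Hist1h1d, named here after its values were seen, had 0, 0 and 10 and then 2, 0 and 3 counts, and its annotated exons span 7425 bases, of which 4884 follow the stem-loop. Summed over the H1 genes, the CPM was 18.6, 60.2 and 74.6 in the isotype samples and 65.5, 36.7 and 49.1 in the anti-CD24 samples, so the anti-CD24 values lay within the isotype range.

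The H2A genes, which encode a core histone, were seen mostly in the isotype samples and in anti-CD24 replicate 2. Their summed counts were 39, 20 and 38 in the isotype samples and 6, 42 and 3 in the anti-CD24 samples. Hist2h2aa2 had 2, 1 and 7 and then 2, 5 and 3 counts, and the log2 fold change was -0.52 (standard error 1.33, edgeR adjusted p = 0.866). It was the single H2A gene with a count in every sample. Hist1h2ag had 4, 2 and 3 and then 0, 3 and 0 counts, a log2 fold change of -2.47 (standard error 1.5, edgeR adjusted p = 0.542). Hist1h2ae had 3, 2 and 3 and then 0, 5 and 0, Hist1h2ab and Hist1h2ai each had 3, 2 and 3 and then 0, 4 and 0, and each of the 5 genes with the long shared stretch had 3, 2 and 3 and then 0, 3 and 0. These patterns differ by a few reads only, and the 15 H2A genes with a count showed 10 distinct patterns.

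The H2B genes, partners of H2A in the core particle, had summed counts of 16, 12 and 39 in the isotype samples and 36, 29 and 0 in the anti-CD24 samples. No H2B gene had a count in anti-CD24 replicate 3. Hist1h2bf had 5, 1 and 5 and then 5, 0 and 0 counts (log2 fold change -1.71, standard error 1.40, edgeR adjusted p = 0.622), and Hist1h2bg 1, 1 and 5 and then 5, 0 and 0. Hist1h2bc had 0, 1 and 6 and then 5, 4 and 0 counts, and Hist1h2bq and Hist1h2br each 2, 1 and 2 and then 3, 5 and 0. The log2 fold change was -0.25 for Hist1h2bc and -0.27 for both Hist1h2bq and Hist1h2br, and each changed sign when rRNA genes were removed before normalization. Hist2h2bb, named for its p, had 2, 1 and 3 counts in the isotype samples and 0 in each anti-CD24 sample. It passed the filter through the isotype samples alone, which fixed its direction, so its values are a description. Against a floor of 3 counts over the anti-CD24 group it was 3.42-fold lower, with the isotype counts taken as exact, so this is not a bound. Of its exons, 59.3% overlap Gm42743 on the same strand.

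The H3 genes, whose protein carries many of the best known histone marks, were lower in every anti-CD24 sample when summed. They had 13, 15 and 48 counts in the isotype samples and 6, 22 and 3 in the anti-CD24 samples, and the mean CPM was 64.5 ± 25.0 (SD, n = 3) for isotype against 14.5 ± 13.7 (SD, n = 3) for anti-CD24. Their share of protein-coding counts did not overlap either, also with 1 gene kept for each set of identical counts, but just 1 of the 12 H3 genes has 50% or more unshared words. Hist2h3c2 had 3, 3 and 15 and then 0, 3 and 0 counts, a pooled ratio of 0.084 (95% counting interval 0.016 to 0.28) and a log2 fold change of -3.37 (standard error 1.40, edgeR adjusted p = 0.518). Hist2h3b, its neighbour in the Hist2 cluster, had 3, 0 and 7 and then 0, 1 and 0 counts. Its pooled ratio of 0.058 (0.0013 to 0.41) rests on a single count after anti-CD24. Both intervals pool the libraries of a group and cover counting error only, not the spread between cultures. The share of unshared words was 35.6% for Hist2h3c2 and 19.3% for Hist2h3b, so the 2 genes can hold the same reads. Hist1h3b had 1, 4 and 7 and then 1, 2 and 2 counts, and the log2 fold change was -1.86 (standard error 1.40, edgeR adjusted p = 0.590). None of the 11 tested H3 genes was called.

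The H4 genes, which encode the most conserved core histone, overlapped between the conditions. Their counts were 9, 3 and 21 in the isotype samples and 16, 27 and 6 in the anti-CD24 samples, and the mean CPM was 24.5 ± 5.6 (SD, n = 3) and 23.5 ± 14.7 (SD, n = 3). Whether they differ in this from the H3 genes, their partners in the core particle, was not tested. Hist1h4b had 1, 3 and 0 and then 2, 2 and 3 counts, and the log2 fold change of -0.17 (standard error 1.56, edgeR adjusted p = 0.969) changed sign when rRNA genes were removed. Hist1h4a had 1, 0 and 0 and then 2, 2 and 0 counts. Hist1h4c, named here after its values were seen, had 0 counts in each isotype sample and 2, 6 and 1 in the anti-CD24 samples. Against a floor of 3 counts over the isotype group it was 1.75-fold higher, with the anti-CD24 counts taken as exact, so this is not a bound. It passed the filter through the anti-CD24 samples alone, which fixed its direction.

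Genes that work with these mRNAs were near the limit of detection. Of 24 genes for the 3′ processing and decay of histone mRNA, 22 were listed, 11 had a count, with 27 counts in all, and 0 could be tested. Slbp, which encodes the stem-loop binding protein, had 1 count, in isotype replicate 2. Of 12 genes listed as replication-independent histone variants, whose mRNAs typically carry poly(A) tails, 7 had a count, with 14 counts in all, and 1 was tested. The highest level of a variant was 0.531 CPM per kilobase, against 17.0 for Hist1h1e and 4.76 for the median histone gene with a count. That variant level, of H3f3c, rests on 1 count over 0.411 kb of exon. Of 24 S-phase and replication genes, 9 had a count (21 counts), 3 were tested and all 3 had log2 fold changes below 0. Of 16 histone chaperones, which carry histones to and from DNA, 10 had a count (22 counts) and 1 was tested. None of these tested genes was called by edgeR.

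Markers of the labelled cell type were sparse. Of 12 B cell markers, 10 had a count, with sums of 8, 0 and 24 in the isotype samples and 15, 12 and 7 in the anti-CD24 samples, and Ptprc was at 0. The 5 T cell markers were at 0 in every sample. Anti-CD24 replicate 1 alone held 99 counts (162 CPM) on the haemoglobin genes Hbb-bs, Hbb-bt, Hba-a1 and Hba-a2, and the 8 counts on myeloid markers fell on anti-CD24 replicates 1 and 2. Their part in the histone values was not tested.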

How the data were processed

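Per the labels and methods, RNA of WEHI-231 EVs was read on an IonTorrent PGM. Reads were trimmed (FASTX toolkit) and aligned by the authors with tmap, which wrote all best hits, and the authors counted exons of Ensembl genes with htseq-count (union mode, stranded; HTSeq 0.5.4p5 and GRCm38.p4 in the submitters' processing notes). The deposited values are raw counts, 1 per gene and library, that had not been normalized. The 5 closing lines of each file, which name no gene and hold 25.9% to 64.9% of its total, were left out. All 6 samples were used, grouped by treatment label.

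Symbols, positions and sequences came from GENCODE M21. Words of 28 bases were compared across all its transcripts. Genes with 1.0 CPM in at least 3 samples were tested across the whole table with edgeR 4.0.16 in R 4.3.3 (quasi-likelihood, TMM, condition as the only factor, Benjamini-Hochberg at 0.05). The test was tried on simulated data with 16-fold changes. The changed genes were drawn from genes with higher counts than most histone genes had, so the trial does not show what could be called among the latter. Other steps used Python 3.11.15, pandas 2.3.3 and scipy 1.17.1. Depth was 166129 to 794185 counts, and Wilson intervals cover counting error only.

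The genes described singly are the 20 members with the highest mean CPM, the 3 with the smallest p, the most abundant of each type, Hist1h1e and Hist1h4a, and others are marked where named. Members and gene lists were chosen with earlier results of these data known. Alternatives were DESeq2 1.42.0, a replicate block, no TMM, rRNA genes removed, no filter, other denominators, members with mostly unshared words, and each sample left out. Chosen after seeing the data were each type counted at its highest member, the share without Hist1h1e, and identical counts kept once for the median. So were core and summed shares with identical counts kept once or with members of mostly unshared words, which still share some sequence. Levels within each group, and genes absent from a group set at a floor of 3 counts, were also chosen then.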

Additional observations from a re-analysis of the deposited data

How the results depend on the processing

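The number of histone genes called was 0 in the main test and in all 11 alternatives, and the smallest adjusted p of any member in any of them was 0.216 (edgeR or DESeq2). Their median log2 fold change stayed below 0. It was -0.84 with rRNA genes removed before normalization, -0.89 without a filter, -1.97 with DESeq2, -1.46 with the replicate block and between -1.90 and -0.91 with each sample left out. The median of all genes moved too, to -0.07 with rRNA genes removed and -0.97 with DESeq2. Relative to it the members were at -1.01 in the main test, -0.78 with rRNA genes removed, -0.51 without a filter and -1.0 with DESeq2. That median takes in non-coding genes. In the main test the median of the protein-coding genes tested, given above, was closer to that of the members, and it is not given for the alternatives. The gap of the main test is thus in part shared with other protein-coding genes. Whether the rest of it, or the gaps of the alternatives, are particular to histone genes was not tested. Same-numbered samples deviated from their group means with correlations of -0.030, -0.024 and -0.11, so no pairing was seen by this measure. With 1 count worth 1.26 to 6.02 CPM, counting noise can hide a pairing, so the measure cannot show that it is absent. With the replicate block 1 member instead of 4 had an unadjusted p under 0.05. Without anti-CD24 replicate 2 that number was 15, and 0 were called.

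The histone share of protein-coding counts was lower by 0.53 percentage points after anti-CD24 (-0.53). The difference became 0.16 with members of mostly unshared words and 0.17 with each type counted at its highest member (chosen after seeing the data). Both keep Hist1h1e. With Hist1h1e left out of all members (also chosen after seeing the data) the difference was -0.85. As a share of all counts on genes, a different scale, the means were 0.0295% and 0.0145%, a difference of -0.015 points without overlap. With a sample left out, the difference in the share of protein-coding counts was -0.80 to -0.27. Without anti-CD24 replicate 3 it was -0.27, and without isotype replicate 2 it was -0.28. The H1 share of histone counts, 30.9%, was 60.9% with members of mostly unshared words and 21.8% to 35.6% with a sample left out, and the number of members with a count was 20 and 57 to 58. The difference in the Hist1h1e share of H1 counts stayed between 34.1 and 38.9 points. Its log2 fold change stayed above 0, from 0.55 to 1.53, with adjusted p from 0.439 to 0.988 (edgeR and DESeq2).

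Of 244 values of the 23 members named by the rule, 17 changed sign, in 5 members. Hist1h4b went to 0.17 with the replicate block and 0.27 with rRNA genes removed, and ran from -1.36 to 1.33 with a sample left out. Hist1h2bc went to 0.17 with rRNA genes removed and 0.16 without a filter, and ran from -0.64 to 0.82. Hist1h2bq and Hist1h2br went to 0.25 with rRNA genes removed and ran from -0.90 to 0.28, and Hist1h4a ran from -0.12 to 1.5. The cause was not tested. With a median of 8 counts per gene, depth limits every single-gene value.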
